A study of Mus musculus with 4 samples.

Results

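The loci of interleukin 2, interleukin 21 and 2 chains of the interleukin 2 receptor were examined in regulatory T cells for accessible chromatin, measured by ATAC-seq, with and without Flicr, a gene next to Foxp3 whose long noncoding RNA modulates Foxp3. Every accessible region that overlapped 1 of 3 windows of the mm9 genome by at least 1 bp was taken, which gave 54 of the 84476 regions measured. The window chr3:36980000-37160000, named for Il2 and Il21, held 17 regions. The window chr2:11540000-11625000, named for Il2ra, held 25, and chr15:78290000-78340000, named for Il2rb, held 12. ATAC-seq inserts adapters into open DNA with a transposase, so reads in a region rise with its accessibility. The cells came from spleen and lymph nodes of male NOD mice, a strain prone to autoimmune diabetes, aged 8 to 10 weeks. They were either intact at Flicr (Flicr WT, 2 libraries) or knocked out for it (Flicr KO, 2 libraries). Each library was made from 50000 live (DAPI-) cells sorted as CD4+, TCRβ+ and CD25hi, the last being the top 50%. The sample labels describe a double sort and the series text a single one. The labels do not say how Flicr was knocked out, and its loss was not checked in these regions. They do not say whether the 2 libraries of a genotype came from separate mice, so a p-value reflects the spread among these 4 libraries alone, part or all of which may be technical.

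Interleukin 2 is a growth factor made mainly by activated conventional T cells, and regulatory T cells make little of it because Foxp3 represses the Il2 gene. Regulatory T cells depend on it instead, and bind it through a receptor of 3 chains: CD25, encoded by Il2ra, which gives high affinity, CD122, encoded by Il2rb, which signals together with the common gamma chain, and that gamma chain itself. Signals from the receptor activate STAT5, which sustains Foxp3. Interleukin 21, encoded by the gene next to Il2, is a cytokine of follicular and other helper T cells. Il2 and Il21 lie within a diabetes susceptibility interval of NOD mice. Because the cells were sorted on CD25, the product of Il2ra, its window was not independent of the sort.

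The promoters are shown because the windows carry the names of these genes. Of the 4 gene symbols, 3 matched a promoter in the RefSeq table of build GRCm38.p6. The sequences are the 250 bases before each start, on the strand of the gene, with matches to the motif GGAAAA, the core bound by NFAT factors, in capitals.
Il2 (GRCm38.p6, chr3:37125955-37126204, minus strand): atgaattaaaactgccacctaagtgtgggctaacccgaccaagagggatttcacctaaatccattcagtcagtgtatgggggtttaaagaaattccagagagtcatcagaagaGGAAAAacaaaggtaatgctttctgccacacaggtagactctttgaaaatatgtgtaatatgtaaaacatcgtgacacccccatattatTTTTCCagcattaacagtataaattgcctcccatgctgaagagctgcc
Il21 (GRCm38.p6, chr3:37232637-37232886, minus strand): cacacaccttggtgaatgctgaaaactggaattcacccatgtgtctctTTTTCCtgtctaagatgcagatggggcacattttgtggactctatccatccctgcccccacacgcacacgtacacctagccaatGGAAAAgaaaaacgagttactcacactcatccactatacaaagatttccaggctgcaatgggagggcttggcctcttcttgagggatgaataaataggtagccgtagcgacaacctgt
Il2ra (GRCm38.p6, chr2:11642542-11642791, plus strand): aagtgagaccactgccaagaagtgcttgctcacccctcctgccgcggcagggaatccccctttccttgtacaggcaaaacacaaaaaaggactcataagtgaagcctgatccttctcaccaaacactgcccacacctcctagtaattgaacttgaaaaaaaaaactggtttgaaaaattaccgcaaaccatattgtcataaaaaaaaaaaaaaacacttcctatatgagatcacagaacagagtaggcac

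The promoters of the cytokine genes each held 2 matches to GGAAAA, 1 on each strand, and that of Il2ra held 0. Of the 32851 promoters in the table, 20.4% held at least 1 match in these 250 bases. In Il2 the matches began 137 and 48 bases before the start, and in Il21 they began 202 and 118 bases before it. The other 7 motifs searched on both strands had 0 matches in all 3 promoters, and matches of different motifs therefore did not overlap. These were TTCNNNGAA (STAT, in 7.02% of all promoters), TGANTCA (AP-1, 6.75%), TGTGGT (RUNX, 14.0%), TGTTTAC (forkhead, 3.17%), the NF-kB motif (0.356%), ATTTGCAT (octamer, 1.60%) and TGACGTCA (CRE, 1.55%). A match describes the letters of the sequence and is not a measured binding site. Only exact matches in these 250 bases were counted, with N as any base. A count of 0 therefore does not show that sites with other letters are absent. The coordinates of these sequences belong to GRCm38.p6 and not to mm9, in which the measured regions are given. No annotation of mm9 was used here, so no region was assigned to a promoter, exon, intron or UTR, and the windows were not checked against gene models. In the order of coding genes of GRCm38.p6, Il2 lies between Adad1 and Il21, Il2ra between Rbm17 and Il15ra, and Il2rb between Tmprss6 and C1qtnf6. The files name no genes, so marker genes of regulatory T cells and other genes of the receptor's pathway were not located.

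Libraries held 19514512 to 41809276 reads, as recovered by taking the lowest value of each library as 1 read. Levels are in RPKM, reads per kilobase of region per 1000000 library reads. The regions took 34.0% and 35.1% of library reads in the KO libraries and 24.2% and 31.1% in the WT libraries, where replicate 1 had the lower share. The median log2 fold change over all tested regions depended on the scaling. It was 0.21 as deposited, 0.064 with each library scaled to the same median RPKM and −0.032 with equal reads in regions. Fold changes below are therefore read against these values, and their scale is log2(RPKM + 1), which understates the change of low regions. Their SE, confidence interval and p come from limma, which pools variance over regions (prior degrees of freedom 44.2 as deposited, 9.98 scaled to the same median). They rest mostly on that pooled variance, and less on the spread of a region's own libraries.

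The Il2ra window was the most densely and broadly accessible of the 3. It held 29.4 regions per 100 kb, against 24.0 in the Il2rb window, 9.44 in the Il2/Il21 window and 3.29 over the genome, counted from the first to the last region of each chromosome. Regions covered 40.6% of its bases, 14.0% of the Il2rb window and 5.76% of the Il2/Il21 window, against 1.97% over the genome counted in the same way. Of the 25 regions of the Il2ra window, 6 were 2000 bp or wider, or 24%, a width reached by 3.39% of all regions and by 0 regions of the other windows. The widest region of the Il2/Il21 window, at 1997 bp, fell just short of that width. The median width was 962 bp in the Il2ra window, 468 bp in the Il2rb window and 404 bp in the Il2/Il21 window, and 377 bp over all regions. The Il2/Il21 window was the sparsest of the 3, though denser in regions than the genome. It had no region in its first 44561 bp and a further gap of 23500 bp between 37079333 and 37102834.

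**Figure D1:**
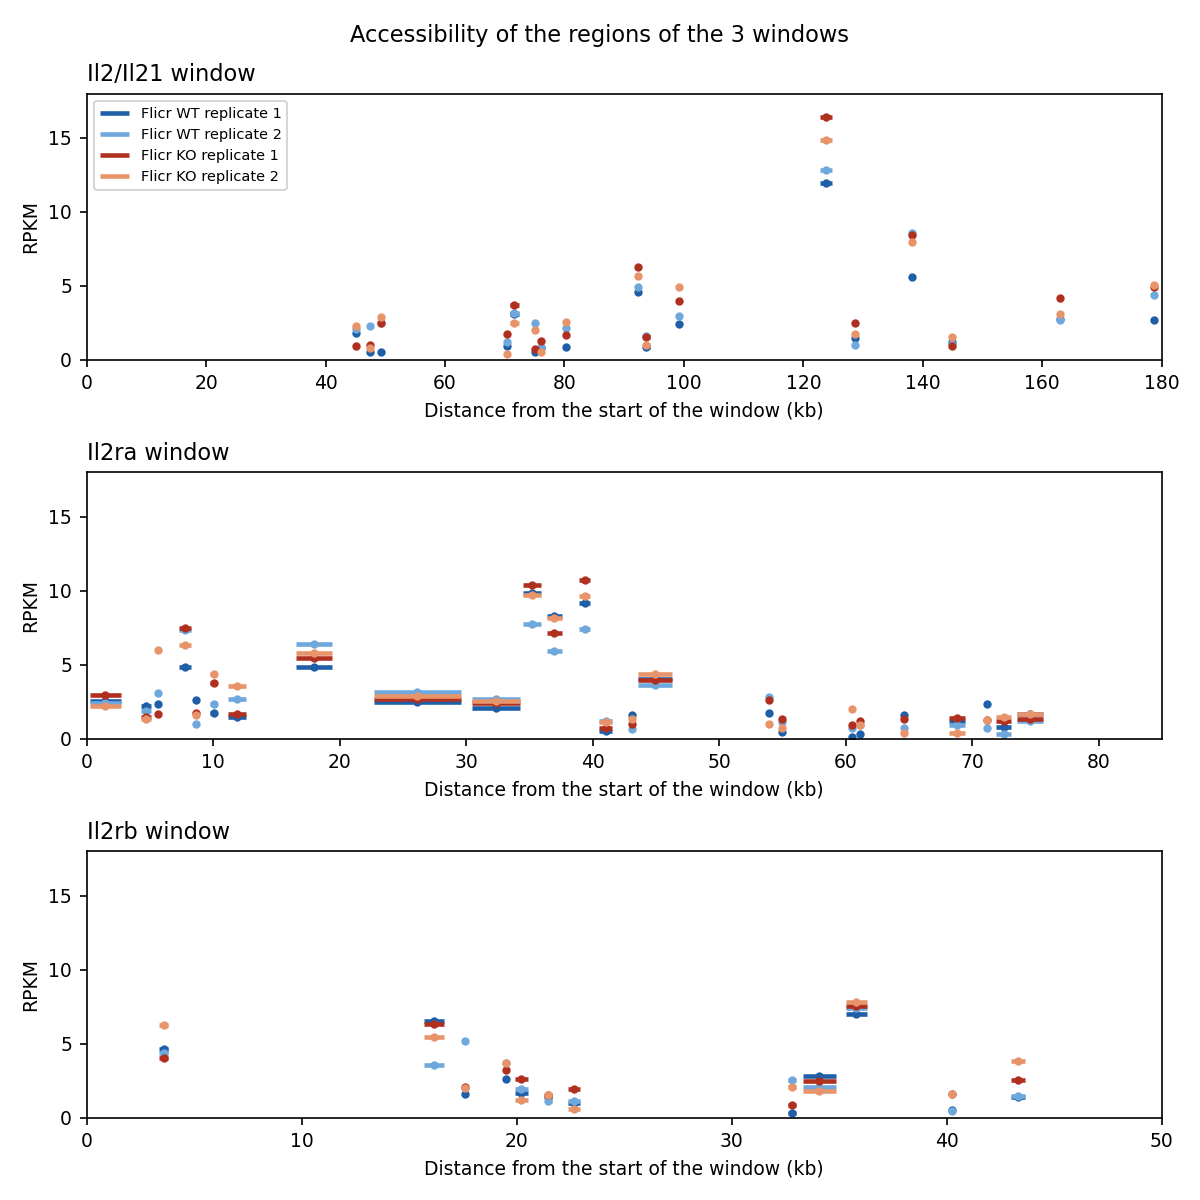
Level of each region in the 3 windows: RPKM (vertical axis) against distance from the start of the window in kb (horizontal axis), with bars as wide as the region, a point at its centre and 1 colour per library. The 1997-bp region of the Il2/Il21 window stands highest, between 11.9 and 16.4 RPKM, and wide regions fill the left part of the Il2ra window.

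Accessibility in the Il2/Il21 window was concentrated in 1 region. This was chr3:37102834-37104830, 1997 bp wide, both the widest and the strongest of the window. It held 52.4% to 57.5% of the reads of the window's regions in the 4 libraries, and its mean level stood at the 95.3rd percentile of all regions. Its level was 11.9 and 12.8 RPKM in WT replicates 1 and 2 (696 and 830 reads), and 16.4 and 14.8 RPKM in KO replicates 1 and 2 (1372 and 578 reads). As deposited, the KO levels were higher than either WT level, and the groups overlapped once the libraries were scaled to the same median. KO averaged 15.6 ± 1.13 RPKM and WT averaged 12.4 ± 0.637 RPKM (SD of 2 libraries), and the log2 fold change was 0.31 (SE 0.25, 95% CI −0.18 to 0.81, limma adjusted p 0.711), or −0.021 with quantile normalization. It did not pass the test.

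Among the other regions of the Il2/Il21 window, chr3:37118060-37118441 was at 5.57 and 8.58 RPKM in WT and at 8.41 and 7.94 RPKM in KO. WT replicate 1 was the low library there, and the other WT library was above both KO libraries. At chr3:37071933-37072586 the levels were 4.61 and 4.91 RPKM in WT and 6.30 and 5.65 RPKM in KO, with the KO libraries above as deposited and overlapping WT once scaled to the same median. Their log2 fold changes were 0.21 (SE 0.28) and 0.27 (SE 0.29), and with equal reads in regions −0.080 and −0.0045. The smallest unadjusted p of the window, 0.0979, was at chr3:37079021-37079333, with 2.41 and 2.97 RPKM in WT and 3.99 and 4.93 RPKM in KO (log2 fold change 0.56, SE 0.33, limma adjusted p 0.618). KO was above WT here also after scaling to the same median, where the fold change was 0.41 (SE 0.27).

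The largest fold change of the Il2/Il21 window rested on 1 low library. It was at chr3:37029186-37029436, with 0.547 and 2.47 RPKM in WT and 2.49 and 2.87 RPKM in KO, on 4 reads in WT replicate 1 and 14 to 26 reads in the other three libraries (log2 fold change 0.67, SE 0.42, limma adjusted p 0.639). WT replicate 2 and KO replicate 1 were nearly equal, and without WT replicate 1 the fold change was 0.083. At chr3:37108464-37108840 the levels were 1.46 and 0.985 RPKM in WT and 2.48 and 1.77 RPKM in KO (0.49, SE 0.42). At chr3:37158408-37159013, the last region of the window, they were 2.71 and 4.39 RPKM in WT and 4.90 and 5.08 RPKM in KO (0.42, SE 0.32). Neither passed the test. Scaled to the same median RPKM, the groups overlapped at 37108464. At 37158408 KO stayed above WT after that scaling, with a log2 fold change of 0.27 (SE 0.25). Without WT replicate 1 the fold change as deposited at 37158408 was 0.15.

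Lower means in KO were small in this window. At chr3:37027235-37027611 the levels were 0.546 and 2.30 RPKM in WT and 1.02 and 0.818 RPKM in KO (log2 fold change −0.24, SE 0.53), so the WT libraries lay on either side of both KO libraries. At chr3:37024561-37025489, the first region of the window, they were 1.84 and 2.06 RPKM in WT and 0.928 and 2.32 RPKM in KO (−0.22, SE 0.42), and here the KO libraries enclosed the WT libraries. The region at chr3:37050253-37050503 was among the lowest, with 0.958 and 1.23 RPKM in WT and 1.72 and 0.410 RPKM in KO, the last on 2 reads (−0.094, SE 0.55). The lowest of all, chr3:37055876-37056289, was at 0.828 and 0.896 RPKM in WT and 1.27 and 0.496 RPKM in KO, and fell under the filter on low levels. In the 3 regions at 37024561, 37027235 and 37050253 the sign depended on which library was left out.

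In the Il2ra window, the strongest regions stood side by side. The 3 highest lay within chr2:11574513-11579815, and wide regions of lower level ran up to them. At chr2:11574513-11575944 the level was 9.87 and 7.76 RPKM in WT and 10.4 and 9.74 RPKM in KO, at the 90.6th percentile of all regions by its mean. At chr2:11576359-11577547 it was 8.32 and 5.95 RPKM in WT and 7.13 and 8.20 RPKM in KO. At chr2:11578930-11579815 it was 9.16 and 7.39 RPKM in WT and 10.7 and 9.67 RPKM in KO. In all 3, WT replicate 2 was the lowest library, and only in the last were the KO levels higher than either WT level, as deposited but not once scaled to the same median. Log2 fold changes were 0.18 (SE 0.26), 0.10 (SE 0.28) and 0.28 (SE 0.26), with limma adjusted p of 0.857, 0.931 and 0.763, and all 3 were below 0 with equal reads in regions, at −0.12, −0.19 and −0.025. Without WT replicate 2 they were 0.025, −0.11 and 0.14.

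The widest region of all 3 windows was chr2:11562741-11569570, at 6830 bp, which ranked 21 by width among the 84476 regions. Its level was 2.48 and 3.16 RPKM in WT (496 and 700 reads) and 2.68 and 2.93 RPKM in KO (764 and 390 reads). The KO libraries lay between the WT libraries, and the log2 fold change was −0.0036 (SE 0.36, 95% CI −0.72 to 0.71, limma adjusted p 0.998). This region held 15.4% to 19.0% of the reads of the window's regions, more than the strongest region, which held 9.75% to 13.0%. The regions of 2000 bp or wider in this window had mean levels at the 28.6th to the 80.3rd percentile of all regions, below the width percentiles of the same regions, which were 97.1 or higher.

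The Il2ra window fell into a dense and a sparse part, split at its widest gap between neighbouring regions, 7513 bp from 11586306 to 11593820. The 16 regions before the gap covered 60.9% of the 46059 bp they span and held 92.5% to 94.4% of the reads of the window's regions in the 4 libraries. Of these, 12 had a mean level above the median of all regions. The 9 regions after the gap had mean levels of 0.850 to 2.05 RPKM, 0 of them above that median. Only 4 of those 9 passed the filter on low levels, against 15 of the 16 before the gap. The genotypes overlapped in this division, as the WT libraries held 92.6% and 94.4% of the reads before the gap and the KO libraries 92.5% and 93.6%.

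Among the 47 regions tested in the windows, the smallest unadjusted p was in the Il2ra window, at chr2:11549754-11550304. Its level was 1.74 and 2.36 RPKM in WT (28 and 42 reads) and 3.74 and 4.38 RPKM in KO (86 and 47 reads). The KO levels were higher than either WT level, as deposited and after scaling to the same median. KO averaged 4.06 ± 0.452 RPKM and WT averaged 2.05 ± 0.435 RPKM (SD of 2 libraries), and the log2 fold change was 0.74 (SE 0.35, 95% CI 0.026 to 1.44), with an unadjusted limma p of 0.0425 and an adjusted p of 0.540. After scaling to the same median it was 0.59 (SE 0.29, limma adjusted p 0.699). The difference did not pass over all regions tested.

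In the opposite direction, both KO libraries lay below both WT libraries as deposited in 1 of the 47 regions tested, against 7.81% of all regions. Scaled to the same median, this held in 5 of the 47, against 13.8%. The 1 region as deposited was chr2:11544262-11545124. Its levels were 2.22 and 1.86 RPKM in WT and 1.50 and 1.31 RPKM in KO (log2 fold change −0.34, SE 0.41, limma adjusted p 0.826). Its neighbour at chr2:11545436-11545813 was at 2.36 and 3.11 RPKM in WT and at 1.65 and 5.98 RPKM in KO. The KO libraries there enclosed the WT libraries, and the log2 fold change of 0.21 (SE 0.38) changed sign without KO replicate 2, to −0.49. At chr2:11593820-11594133 the levels were 1.75 and 2.86 RPKM in WT and 2.60 and 0.982 RPKM in KO (−0.29, SE 0.41). At chr2:11604512-11604762 they were 1.64 and 0.740 RPKM in WT and 1.34 and 0.410 RPKM in KO, the last on 2 reads (−0.24, SE 0.57). Replicates of 1 genotype differed by more than the genotypes in these last 2 regions.

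A narrow region of the Il2ra window, chr2:11548522-11548772, was at 2.60 and 0.987 RPKM in WT and 1.72 and 1.64 RPKM in KO (log2 fold change 0.0032, SE 0.42). Of the lowest regions, chr2:11600979-11601303 was at 0.317 and 0.952 RPKM in WT and 1.18 and 0.949 RPKM in KO, and chr2:11580545-11581553 was at 0.543 and 1.22 RPKM in WT and 0.759 and 1.12 RPKM in KO. Both were under the filter on low levels. The latter is 1009 bp wide and is the next region after the 3 strongest, so that mean level went from the 90.2nd to the 2.07th percentile between neighbours.

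In the Il2rb window, chr15:78325309-78326288 was the strongest region and varied little between libraries. Its level was 6.99 and 7.41 RPKM in WT (200 and 235 reads) and 7.52 and 7.85 RPKM in KO (308 and 150 reads). The KO libraries lay above the WT libraries by less than 1 RPKM, and the log2 fold change was 0.084 (SE 0.27, limma adjusted p 0.945), or −0.095 after scaling to the same median. It held 29.2% to 33.6% of the reads of the window's regions. The next strongest, chr15:78305700-78306599, was at 6.54 and 3.60 RPKM in WT and 6.36 and 5.47 RPKM in KO (0.23, SE 0.30). The first region of the window, chr15:78293379-78293769, was at 4.65 and 4.35 RPKM in WT and 4.05 and 6.31 RPKM in KO (0.14, SE 0.31). WT replicate 2 was the low library in the former and KO replicate 2 the high one in the latter. The widest, chr15:78323315-78324837, lay just before the strongest region and was at 2.81 and 2.07 RPKM in WT and 2.51 and 1.78 RPKM in KO (−0.13, SE 0.38), with the genotypes overlapping.

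The last 2 regions of the Il2rb window had the largest fold changes of the 47 regions tested. At chr15:78333006-78333619 the level was 1.40 and 1.46 RPKM in WT (25 and 29 reads) and 2.58 and 3.85 RPKM in KO (66 and 46 reads). KO lay above WT, by a log2 fold change of 0.78 (SE 0.39, 95% CI 0.0020 to 1.55), with an unadjusted limma p of 0.0494 and an adjusted p of 0.550. At chr15:78330128-78330378 the level was 0.547 and 0.494 RPKM in WT and 1.63 and 1.64 RPKM in KO, on 4 and 4 reads against 17 and 8. The log2 fold change was 0.79 (SE 0.55, limma adjusted p 0.671). The ratios of the mean RPKM were 2.25 and 3.14. In both regions the KO libraries stayed above the WT libraries after scaling to the same median, at 0.64 (SE 0.34) and 0.69 (SE 0.48), and neither passed the test.

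The most negative fold change of the Il2rb window, at chr15:78307462-78307712, rested on WT replicate 2. Levels were 1.64 and 5.18 RPKM in WT (12 and 42 reads) and 2.10 and 2.05 RPKM in KO (22 and 10 reads). The log2 fold change was −0.39 (SE 0.39) with all libraries and 0.22 without WT replicate 2. Scaled to the same median RPKM it was −0.52 (SE 0.36), with both KO libraries below both WT libraries. At chr15:78309911-78310519 the levels were 1.69 and 1.93 RPKM in WT and 2.60 and 1.18 RPKM in KO (−0.0029, SE 0.41). At chr15:78312396-78312940, among the lowest, they were 1.01 and 1.13 RPKM in WT and 1.94 and 0.565 RPKM in KO (0.051, SE 0.52). In both, KO replicate 1 was the highest and KO replicate 2 the lowest library.

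Over the 3 windows, no region was called between the genotypes. Of the 54 regions, 47 passed the filter on low levels, and limma called 0 of them in either direction at an adjusted p under 0.05. Of all 80254 regions tested, 0.0187% were called higher in KO and 0.0% lower. At an unadjusted p under 0.05, 2 of the 47 were higher in KO, 1 each in the Il2ra and Il2rb windows, and 0 were lower, against 8.22% higher and 0.842% lower of all regions. Scaled to the same median RPKM, 0 of the 47 were higher or lower at that p, against 5.29% and 2.0% of all regions, and 0.0% of all regions were called in either direction. Limma voom on read numbers also called 0 of the 47, whether scaled to all library reads or to reads in regions. In these bulk libraries, a change in the share of cells with an open region and a change within each cell cannot be told apart.

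**Figure D2:**
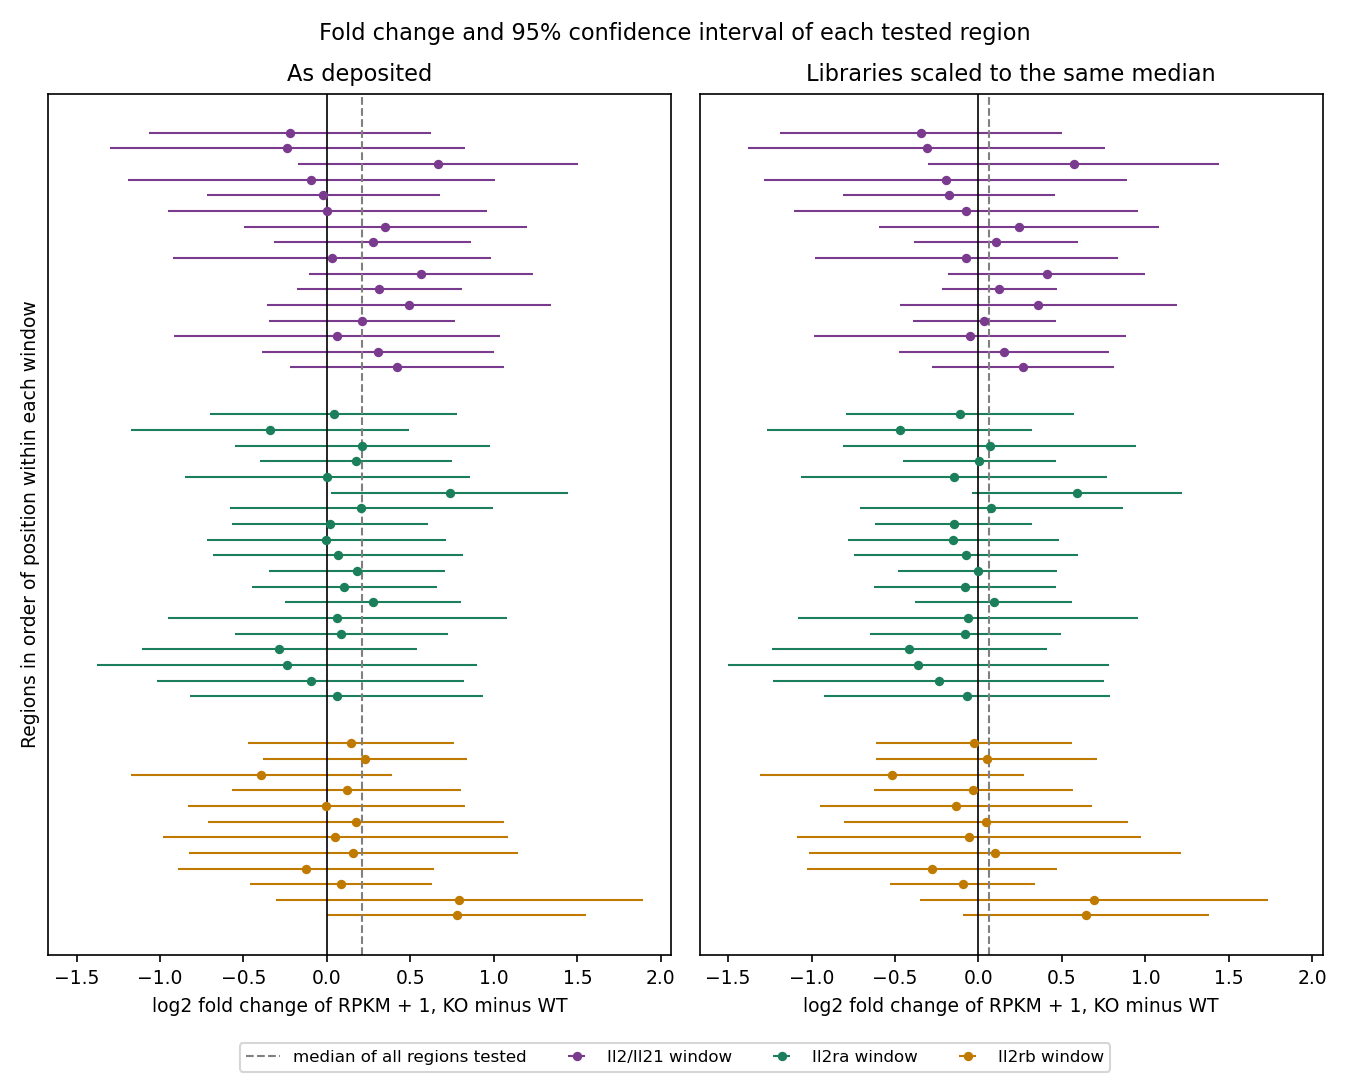
Log2 fold change of RPKM + 1, KO minus WT (horizontal axis), of each of the 47 tested regions in order of position (vertical axis), with the 95% confidence interval from limma. As deposited (left) most points lie right of 0. Their median is 0.087, below the median of all regions tested, 0.21 (dashed line). With libraries scaled to the same median (right) the points lie on both sides of 0, with every interval there reaching across 0.

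Counts of direction were close to those of all regions as deposited and depended on the scaling. As deposited, 12 of 16 regions of the Il2/Il21 window, 14 of 19 of the Il2ra window and 9 of 12 of the Il2rb window had a log2 fold change above 0, against 71.0% of all regions. With each library scaled to the same median RPKM these counts were 9, 5 and 5, against 57.5% of all regions. The median log2 fold change as deposited was 0.24 in the Il2/Il21 window, 0.062 in the Il2ra window and 0.13 in the Il2rb window, beside 0.21 over all regions. Scaled to the same median RPKM, the medians were 0.069, −0.078 and −0.029, beside 0.064 over all regions. With equal reads in regions all 3 were below 0, at −0.042, −0.18 and −0.13, beside −0.032. Without WT replicate 1 the median of the Il2/Il21 window was 0.025 and that of the Il2rb window 0.038, and the median of the Il2ra window was 0.025 without WT replicate 2 or without KO replicate 2.

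Groups that did not overlap were also no more than a description. Each KO level exceeded each WT level in 7 of 16 regions of the Il2/Il21 window, 2 of 19 of the Il2ra window and 4 of 12 of the Il2rb window, against 33.2% of all regions. Each KO level was below each WT level in 0, 1 and 0 regions, against 7.81%. Scaled to the same median RPKM, KO was above WT in 2, 1 and 2 regions, against 23.5% of all regions, and below WT in 0, 4 and 1, against 13.8%. The 4 that were below in the Il2ra window included its widest region and 2 further regions of 2000 bp or more, with log2 fold changes of −0.075 to −0.15.

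Summed over its regions, each window took on average a larger share of library reads in KO and a smaller share of the reads in all regions. The Il2/Il21 window held 41.4 (95% exact binomial CI 39.1 to 43.8) and 48.9 (46.5 to 51.3) reads per 1000000 library reads in WT, and 57.2 (55.0 to 59.6) and 52.6 (49.5 to 55.9) in KO. These intervals cover no more than counting error, and reads are not independent molecules. Read numbers were even in 78.8% to 85.5% of regions over the 4 libraries, as when both ends of a fragment are counted. Reads then outnumber fragments, and the intervals are too narrow even for counting error. The Il2ra window held 109 (105 to 112) and 114 (110 to 118) in WT, and 118 (115 to 122) and 123 (118 to 128) in KO. In the Il2rb window there were 23.0 (21.3 to 24.8) and 21.6 (20.0 to 23.3) in WT, and 25.3 (23.8 to 26.8) and 24.2 (22.1 to 26.5) in KO. Each KO share exceeded each WT share in all 3 windows, as it did in the share of all reads that fell in regions. Without its strongest region, the Il2/Il21 window held 17.6 and 23.3 reads per 1000000 library reads in WT and 24.4 and 23.0 in KO, so the genotypes overlapped (exact permutation p = 0.67), while in the Il2ra and Il2rb windows they stayed apart.

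Mean reads per 1000000 library reads were 54.9 ± 3.26 in KO and 45.1 ± 5.26 in WT for the Il2/Il21 window (SD, n = 2 each), a ratio of 1.22. For the Il2ra window they were 121 ± 3.33 and 111 ± 3.75, a ratio of 1.08, and for the Il2rb window 24.7 ± 0.721 and 22.3 ± 1.01, a ratio of 1.11. Two-sided, an exact permutation of the 4 libraries had p = 0.33 for each window, the lowest value that this number of libraries allows. In reads per 1000000 region reads the ratios were 0.969, 0.859 and 0.872, with exact permutation p of 0.67, 0.33 and 1. The Il2ra window had 338 and 362 reads per 1000000 region reads in KO and 448 and 366 in WT, so that WT replicate 1, the library with the smallest share of its reads in regions, was the one that stood apart. Without it the 3 ratios were 1.01, 0.954 and 1.03, so the direction in the Il2/Il21 and Il2rb windows rested on that library.

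**Figure D3:**
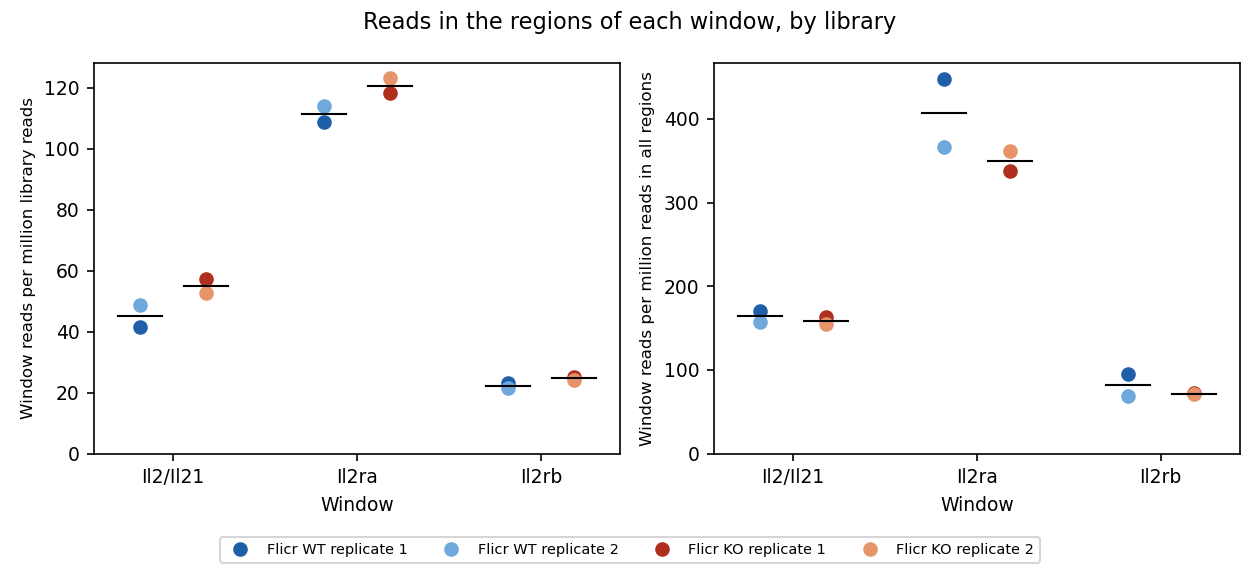
Reads in the regions of each window per 1000000 library reads (left) and per 1000000 reads in all regions (right), by window (horizontal axis), with 1 point per library and a line at the mean of each genotype. The KO libraries lie above the WT libraries in all 3 windows on the left, and on the right WT replicate 1 is the highest library in each window.

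The levels of typical regions overlapped between the windows. The median level of the Il2/Il21 regions ran from 1.46 to 2.52 RPKM over the 4 libraries, that of the Il2ra regions from 1.69 to 2.36 RPKM and that of the Il2rb regions from 1.66 to 2.54 RPKM, and these ranges overlap each other and that of all regions, 1.92 to 2.54 RPKM. By mean level, 10 of 17, 13 of 25 and 5 of 12 regions were below the median of all regions, and 1, 2 and 0 were in the top decile. In width, 2, 8 and 1 regions were in the top decile. The 3 strongest regions of a window held 68.8% of its reads in the Il2/Il21 window and 59.5% in the Il2rb window, but 26.3% in the Il2ra window, where reads were spread over many wide regions. The nearest regions outside the windows were not strong either, with mean levels of 0.883 to 3.40 RPKM in WT and 1.37 to 3.16 RPKM in KO for the region on each side of the 3 windows.

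Among the strongest regions, the order was firm at the top and loose below it. The 1997-bp region of the Il2/Il21 window, at 14.0 ± 2.03 RPKM (SD over the 4 libraries), ranked first of the 54 in each library. By mean level it was followed by the Il2ra regions starting at 11574513 and 11578930, at 9.44 ± 1.16 and 9.23 ± 1.38 RPKM, which changed places between libraries. Next came the regions starting at 37118060 in the Il2/Il21 window, 78325309 in the Il2rb window and 11576359 in the Il2ra window, at 7.62 ± 1.40, 7.44 ± 0.357 and 7.40 ± 1.11 RPKM, whose order was within their spread. In WT replicate 2, the region at 37118060 ranked 2 of the 54 and that at 11578930 ranked 5. The Il2rb region had the smallest spread of the 6.

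**Figure D4:**
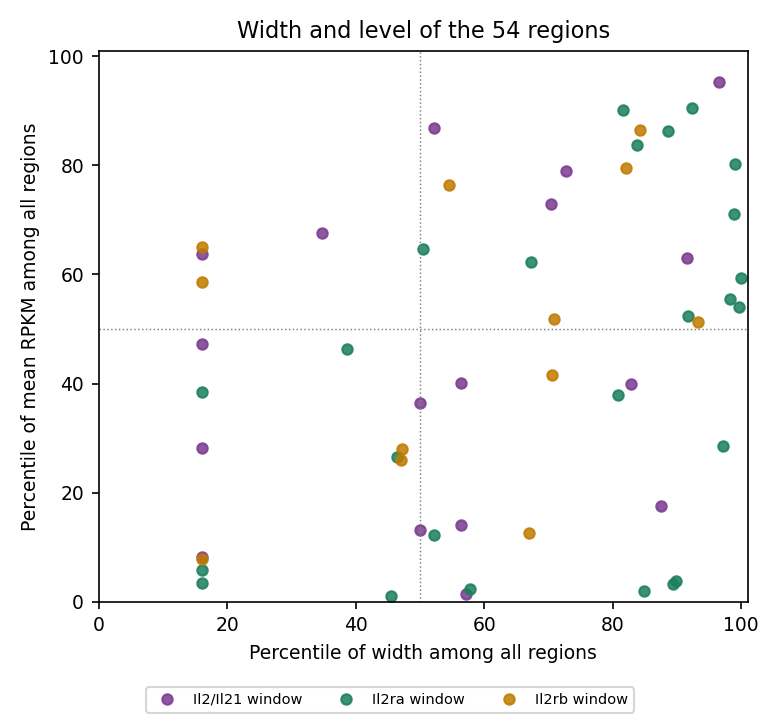
Percentile of mean RPKM (vertical axis) against percentile of width (horizontal axis) of the 54 regions among all 84476, coloured by window. Regions of the Il2ra window crowd the right edge, at widths up to the 99.98th percentile, with levels spread from the 1.06th to the 90.6th percentile.

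Wide regions were not always strong ones. Spearman's correlation between width and mean level across regions was 0.42 over the 25 regions of the Il2ra window, 0.27 over 17 of the Il2/Il21 window and 0.37 over 12 of the Il2rb window, beside 0.56 over all regions. Regions share libraries and a common calling of their borders, so these values are a description.

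Within the windows, libraries of 1 genotype were not consistently closer to each other than to the other genotype. With libraries scaled to the same median RPKM, the median absolute log2 difference over the 47 tested regions was 0.217 for the pair of KO libraries and 0.283 for the WT pair. Between a KO and a WT library it was 0.261 to 0.385. The windows differed in this. In the Il2/Il21 window the KO libraries were the farthest apart of the 6 pairs, at 0.297, with 0.139 to 0.263 between genotypes. In the Il2ra and Il2rb windows they were the closest pair, at 0.172 and 0.236, with 0.220 to 0.385 and 0.319 to 0.533 between genotypes. The WT libraries were 0.265 apart in the Il2/Il21 window, 0.411 in the Il2ra window and 0.316 in the Il2rb window. In the Il2ra window they were thus the farthest apart of the 6 pairs. Over all regions tested the KO pair was at 0.306 and the WT pair at 0.322, with 0.308 to 0.352 between genotypes. The unadjusted 95% confidence interval of a fold change reached a median of 0.84, 0.75 and 0.78 in the Il2/Il21, Il2ra and Il2rb windows to each side of it. On this log2(RPKM + 1) scale, smaller differences in a single region mostly could not be told from 0 even before adjustment. A call at an adjusted p under 0.05 needed a larger difference still. The regions at 11549754 and 78333006 had intervals above 0, but limma adjusted p of 0.540 and 0.550.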

How the data were processed

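ATAC-seq libraries, 2 per genotype, were read on a 75-bp paired-end kit, per the labels' protocols. The authors deposited 1 file per library, with the same 84476 regions of build mm9 and an RPKM value for each. Bowtie2, Picard 1.130, SAMtools, HOMER 4.6 and DiffBind are named, without roles, in the submitters' processing notes. How regions were called, and whether on pooled libraries, is not given in the sources used here. Taking the smallest value of a library as 1 read gave its size, and multiplying RPKM by region length and that size returned whole reads for every value (tolerance 0.001 reads). A region listed at 1 read may have held 0.

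From these values, log2(RPKM + 1) was compared between genotypes with limma 3.58.1 (R 4.3.3, trend and robust variance) over the 80254 regions with a mean of at least 1.01 RPKM, the 5th percentile, with Benjamini-Hochberg adjustment over all of them and a threshold of 0.05. Scaling to the same median multiplied each library's RPKM so that all medians over regions were equal. Window sums were compared with exact permutation tests. Coordinates are 1-based.

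Named regions of a window are the 3 highest, the widest, the narrowest, the 2 lowest, the 3 most positive and 3 most negative fold changes and the 3 smallest p. The windows, gene lists and naming rule were chosen with earlier results of these data known. Alternatives were other scalings, pseudocounts, filters, thresholds and variance models, voom on recovered reads, a replicate block, regions taken by midpoint, windows without their strongest region, and each library left out. NOD reads were reported on mm9, a C57BL/6J genome, and the effect of strain differences was not tested.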

Additional observations from a re-analysis of the deposited data

How the results depend on the processing

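In the 3 windows, 0 regions were called under any alternative run, in either direction, and over all of them the limma adjusted p of the named regions was 0.121 or higher. Only 2 libraries per group, and in low regions a few reads, limit what could be detected. Over all regions, the 15 higher and 0 lower calls became 0 higher with scaling to the same median, equal reads in regions, quantile normalization, or limma without trend and robust variance, 25 without the filter, 30 at an adjusted p under 0.10, and 10 lower with voom on region reads. Leaving out 1 library gave 0 to 6440 higher and 0 to 18 lower. Across regions, the difference between the KO replicates was not correlated with that between the WT replicates (correlation 0.0031). Whether same-numbered libraries shared a sort or a batch cannot be told from this value. A replicate block gave 42 higher over all regions and 0 in the windows. The median log2 fold change of the Il2/Il21 window, 0.24, became −0.042 with equal reads in regions, −0.050 with quantile normalization and −0.036 with voom on region reads, and 0.025 to 0.33 with 1 library left out. That of the Il2ra window, 0.062, became −0.078 with the same median, −0.18, −0.13 and −0.22, and that of the Il2rb window, 0.13, became −0.13, −0.066 and −0.20, with 0.025 to 0.090 and 0.038 to 0.15 with 1 library left out. The log2 ratios of window reads, with region reads as denominator, were −0.045, −0.22 and −0.20. These scalings remove a common shift by construction. For all other changes the cause was not tested.

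Named regions whose fold change reversed, by start and log2 fold change, were the following. With the same median: 78293379 (−0.025), 78312396 (−0.057), 78325309 (−0.095), 11548522 (−0.14), 11574513 (−0.0046) and 11576359 (−0.079). With equal reads in regions: 78293379 (−0.13), 78305700 (−0.059), 78312396 (−0.12), 78325309 (−0.21), 11545436 (−0.027), 11548522 (−0.22), 11574513 (−0.12), 11576359 (−0.19), 11578930 (−0.025), 37071933 (−0.0045) and 37118060 (−0.080). With quantile normalization: 78293379 (−0.11), 78305700 (−0.045), 78325309 (−0.22), 11548522 (−0.13), 11574513 (−0.13), 11576359 (−0.20), 11578930 (−0.037), 37102834 (−0.021) and 37118060 (−0.088). With voom on region reads: 78293379 (−0.24), 78325309 (−0.23), 11545436 (−0.45), 11548522 (−0.065), 11574513 (−0.073), 11576359 (−0.19) and 37118060 (−0.10). With a pseudocount of 5: 78309911 (0.0094) and 11548522 (−0.014). With voom on library reads: 78309911 (0.12), 11545436 (−0.062) and 37050253 (0.16). With 1 library left out, the ranges that crossed 0 were 78293379 (−0.12 to 0.41), 78305700 (−0.13 to 0.58), 78307462 (−1.01 to 0.22), 78309911 (−0.36 to 0.36), 78312396 (−0.40 to 0.50), 78323315 (−0.30 to 0.040), 11545436 (−0.49 to 0.91), 11548522 (−0.43 to 0.43), 11562741 (−0.13 to 0.12), 11576359 (−0.11 to 0.32), 11593820 (−0.72 to 0.14), 11604512 (−0.60 to 0.13), 37024561 (−0.61 to 0.17), 37027235 (−0.78 to 0.31), 37050253 (−0.57 to 0.38) and 37118060 (−0.064 to 0.48). A group left with 1 library was assumed to vary like the other. The median levels of the windows, 2.23, 2.04 and 2.15 RPKM, moved by less than the spread between libraries with each library left out, an alternative chosen after seeing the data.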
